A study of Mus musculus with 12 samples.

Results

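Goblet cells of the mouse duodenum were followed through 10 genes: Muc2, Clca1, Fcgbp, Tff3, Zg16, Agr2, Spdef, Atoh1, Spink4 and Retnlb. A probe was taken as a member when its accession mapped to one of these symbols. This gave 11 probes, 2 of them for Muc2, out of 56583 probes kept on the array and 22905 named genes. All 10 genes passed the filter on dim probes, which kept a probe only if the scanner software had marked it as well above background throughout at least 1 group of 3 arrays.

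Whole duodenum of male mice was hybridised to 12 one-colour Agilent arrays, 1 mouse to an array and 3 to a group. The groups were wild type (WT) given vehicle, WT given IIAEK, a peptide of 5 residues named by its one-letter code, Akp3-/- given vehicle and Akp3-/- given IIAEK; Akp3 encodes an intestinal alkaline phosphatase, and Akp3-/- is written KO here. Mice were 7 weeks old, IIAEK was dosed orally at 600 mg per kg of body weight daily, vehicle was sodium carboxymethylcellulose at 5 g per L, and all were fasted for 8 h before the duodenum was removed. Titles and the series design give 14 d of dosing, whereas source labels of some IIAEK samples give weeks. The labels do not say how the Akp3 allele was made or whether it acts in all cells.

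Goblet cells are secretory cells of the intestinal epithelium that store mucin in granules and release it onto the villus surface. Atoh1 directs crypt progenitors toward secretory fates and Spdef acts later, in the terminal maturation of goblet cells. Muc2 is the gel-forming mucin of intestinal mucus; Agr2 is needed for its folding, and Fcgbp, Clca1, Zg16 and Tff3 are secreted with it. Several of these genes are not private to goblet cells: Agr2 and Spdef are also made in mucous cells of the stomach, and Zg16 was first described in zymogen granules of the pancreas.

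Levels are given as log2 of the processed intensity minus the 75th percentile of the same array, so that 0 is the 75th percentile. Because probes differ in brightness, a level is compared between arrays of one probe and never between probes. The share of probes well above background ranged over the arrays from 55.9% to 64.0% and the 75th percentile of intensity from 195 to 466, and 0 member spots were saturated. Akp3 lay between 1.05 and 2.72 on the 6 WT arrays and between -4.90 and -3.80 on the 6 KO arrays. All 15 enterocyte markers passed the filter, with a list mean between 5.79 and 6.38. The arrays came from 2 slides of 7 and 5 arrays, each holding all 4 groups. The mean of 11 markers of gastric and Brunner's gland mucous cells was 2.94 to 4.33 on 6 arrays and -2.55 to -1.25 on the remaining 6. WT vehicle 1, 2 and 3, WT IIAEK 3, KO vehicle 1 and KO IIAEK 3 were the high ones. The mean of 19 pancreas markers was 2.15 on WT vehicle 1 and 6.75 to 8.71 elsewhere. KO IIAEK 3 had the highest smooth muscle mean, 3.46 against 1.72 to 2.76. In whole tissue, fewer cells of a type and less RNA per cell cannot be told apart.

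Start-site sequence was available here for 5 of the 10 genes, from RefSeq on GRCm38.p6, as windows of 250 bases before to 50 after the gene start. Those of Muc2, the mucin itself, and of Agr2 and Spdef, both high on the same 6 arrays, are printed 5′ to 3′ on the strand of the gene. Muc2 lies at chr7:141690090-141690389 on the plus strand, Agr2 at chr12:35992675-35992974 on the plus strand and Spdef at chr17:27728902-27729201 on the minus strand. Capitals mark matches, on either strand, to CAGCTG (an E-box core), TATAAA (the core promoter box), AGATAA (a word of zinc-finger Gata factors), TGTTTAC (forkhead), TGTTTGC (forkhead, other form), TTTATG (CDX) and CCACCC (KLF).
Muc2: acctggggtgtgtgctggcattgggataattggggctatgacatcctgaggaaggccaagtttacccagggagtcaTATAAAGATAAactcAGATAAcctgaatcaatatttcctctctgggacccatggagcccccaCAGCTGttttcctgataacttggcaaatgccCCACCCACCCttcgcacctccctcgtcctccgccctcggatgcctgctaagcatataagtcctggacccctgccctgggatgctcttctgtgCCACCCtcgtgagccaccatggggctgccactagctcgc
Agr2: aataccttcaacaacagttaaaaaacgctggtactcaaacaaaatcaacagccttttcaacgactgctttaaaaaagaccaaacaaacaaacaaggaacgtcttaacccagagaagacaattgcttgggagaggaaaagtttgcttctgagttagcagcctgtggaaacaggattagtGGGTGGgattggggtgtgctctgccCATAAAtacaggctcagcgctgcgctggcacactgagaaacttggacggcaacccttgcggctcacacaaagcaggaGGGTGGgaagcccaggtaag
Spdef: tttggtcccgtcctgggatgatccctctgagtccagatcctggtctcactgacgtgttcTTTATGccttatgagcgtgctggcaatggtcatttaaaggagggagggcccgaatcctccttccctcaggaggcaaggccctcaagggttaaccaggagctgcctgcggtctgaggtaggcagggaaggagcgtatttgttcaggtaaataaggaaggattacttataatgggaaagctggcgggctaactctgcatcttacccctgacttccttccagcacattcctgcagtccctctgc

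Positions count from the gene start. The Muc2 window held the E-box core at -112, a TATAAA at -174, AGATAA at -169 and -159, and CCACCC at -81, -77 and 11. The TATAAA shared a base with the first AGATAA, and the CCACCC matches at -81 and -77 overlapped. Agr2 held the CDX word on the reverse strand at -47 and the KLF word on the reverse strand at -72 and 30, and Spdef held the CDX word at -191. None of these 3 windows held either forkhead word. Among 32851 promoter windows of the same length, the word CAGCTG was in 16.3%, TATAAA in 13.6%, AGATAA in 11.2%, TTTATG in 11.9%, CCACCC in 31.5%, TGTTTAC in 3.65% and TGTTTGC in 5.07%. A match describes letters only, and no binding was measured.

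Of the transcription factors, Atoh1 was the steadiest member and Spdef among the most variable. Atoh1 read -0.30, -0.21 and 0.03 under WT vehicle, -0.38, 0.18 and -0.16 under WT IIAEK, -0.25, 0.04 and -0.08 under KO vehicle, and -0.36, -0.17 and -0.20 under KO IIAEK. The 4 groups overlapped, and the whole range over 12 arrays was 0.56 on the log2 scale.

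Spdef read 3.94, 4.10 and 4.15 under WT vehicle, 1.98, 2.28 and 4.05 under WT IIAEK, 3.75, 2.86 and 2.54 under KO vehicle, and 2.34, 2.17 and 4.56 under KO IIAEK. WT vehicle was uniformly high, while each other group joined 1 high array to 2 low ones. The group means were 4.06 ± 0.11, 2.77 ± 1.12, 3.05 ± 0.63 and 3.03 ± 1.33 (SD, n = 3 each).

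Agr2, a protein disulfide isomerase of the endoplasmic reticulum, was also uniformly high under WT vehicle. It read 8.21, 8.33 and 7.93 under WT vehicle, 5.75, 6.60 and 8.32 under WT IIAEK, 8.56, 7.07 and 6.54 under KO vehicle, and 7.31, 6.17 and 7.70 under KO IIAEK. The array that was high in Spdef was also the highest of its group in Agr2 in WT IIAEK, KO vehicle and KO IIAEK. Group means were 8.16 ± 0.21, 6.89 ± 1.31, 7.39 ± 1.04 and 7.06 ± 0.80 (SD, n = 3 each).

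Muc2 moved far less. It read 5.88, 5.71 and 5.69 under WT vehicle, 5.60, 5.69 and 5.40 under WT IIAEK, 5.75, 5.21 and 5.39 under KO vehicle, and 5.44, 5.49 and 6.06 under KO IIAEK. The group means were 5.76 ± 0.10, 5.56 ± 0.15, 5.45 ± 0.28 and 5.67 ± 0.34 (SD, n = 3 each), and the highest array of all was KO IIAEK 3. The other Muc2 probe, which was dim, spanned -2.65 to -1.09 and was also highest on that array.

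Of the proteins that accompany Muc2 in mucus, Clca1, Fcgbp and Tff3 had ranges of 1.10, 0.87 and 0.77 on the log2 scale over the 12 arrays, and Zg16 of 1.74. Clca1, a metalloprotease that acts on Muc2, read 7.47, 7.40 and 7.04 under WT vehicle, 6.66, 7.51 and 7.54 under WT IIAEK, 7.76, 7.55 and 7.31 under KO vehicle, and 7.36, 7.16 and 6.98 under KO IIAEK. Its lowest array was WT IIAEK 1 and its highest KO vehicle 1, with overlap between every pair of groups set side by side below.

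Fcgbp, a large protein bound to the mucin network, read 6.31, 6.14 and 6.80 under WT vehicle, 6.47, 6.74 and 6.44 under WT IIAEK, 6.07, 6.21 and 6.66 under KO vehicle, and 6.30, 6.40 and 6.93 under KO IIAEK. Tff3, a trefoil peptide of epithelial repair, read 7.98, 8.08 and 8.09 under WT vehicle, 7.81, 8.45 and 8.09 under WT IIAEK, 8.31, 8.25 and 8.23 under KO vehicle, and 8.59, 8.23 and 7.83 under KO IIAEK. All 3 Tff3 values of KO vehicle lay above those of WT vehicle, whereas the IIAEK groups spread to both sides of them.

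Zg16, a lectin that binds bacterial cell walls, read 8.43, 9.55 and 9.66 under WT vehicle, 9.04, 9.84 and 9.88 under WT IIAEK, 9.10, 10.08 and 10.09 under KO vehicle, and 10.17, 9.72 and 9.30 under KO IIAEK. The first array of WT vehicle, WT IIAEK and KO vehicle was the lowest of its group, and WT vehicle 1 was the lowest of all. The replicate numbers carry no order.

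Spink4, a Kazal-type protease inhibitor made by goblet cells, read 7.03, 7.18 and 7.01 under WT vehicle, 6.96, 7.80 and 7.16 under WT IIAEK, 7.16, 7.63 and 7.70 under KO vehicle, and 8.27, 7.39 and 6.85 under KO IIAEK. Its highest and lowest arrays of all 12 both fell in KO IIAEK. Retnlb, a goblet cell cytokine-like protein that is induced in type 2 immunity, was dim and the widest: -3.26, -4.68 and -3.94 under WT vehicle, -5.08, -3.64 and -2.82 under WT IIAEK, -1.08, -1.99 and -3.67 under KO vehicle, and -2.39, -4.30 and -4.28 under KO IIAEK. It was well above background on 9 of 12 arrays, which were 2, 2, 3 and 2 of 3 in that group order, so the lowest values carry the least information.

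**Figure D1:**
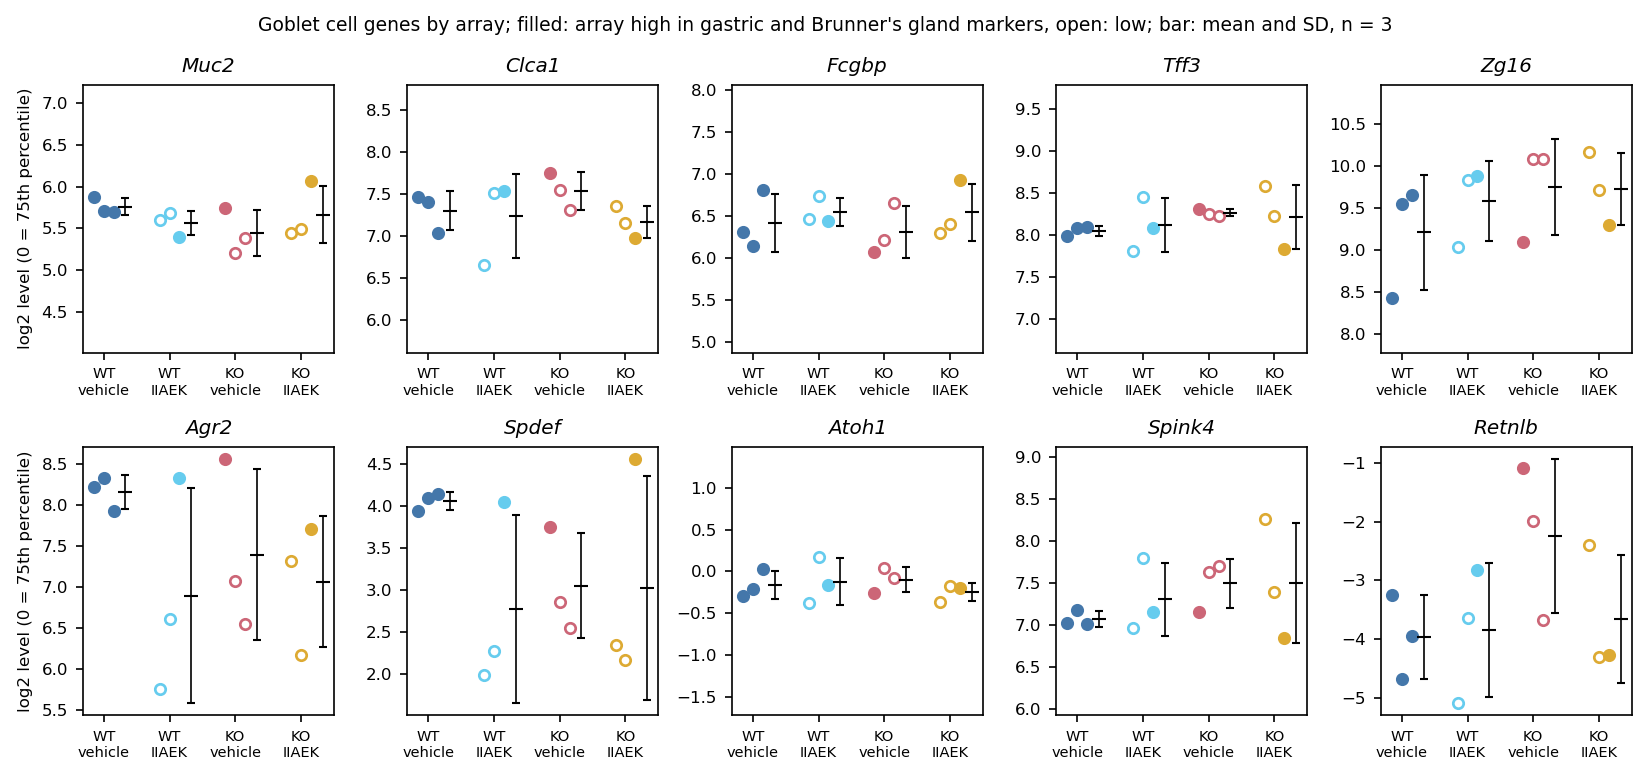
Log2 level of each goblet cell gene on every array (y axis; 0 is the array's 75th percentile) by group (x axis), with the mean and SD of 3 arrays beside the points; filled points are the 6 arrays high in gastric and Brunner's gland markers. In Agr2 and Spdef the filled points lie above all open ones, from 7.70 and from 3.75 up. In the other 8 genes they overlap, in Spink4 only through WT IIAEK 1 (6.96), with every other open point above the filled ones.

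The first comparison asked what IIAEK does in the WT duodenum. None of the 10 goblet cell genes passed the test, which was limma with an adjusted p below 0.05 (Benjamini-Hochberg over all 26107 features); 0% of all features passed it, and 817 (3.13%) had an unadjusted p below 0.05, none of them a member. The members with the smallest p were Spdef, with a log2 fold change of -1.29 (SE 0.65, 95% interval -2.72 to 0.13), and Agr2, with -1.26 (SE 0.65, interval -2.70 to 0.17). Leaving out single arrays gave -1.93 to -0.90 for Spdef and -1.98 to -0.70 for Agr2. Muc2 followed with -0.20 (SE 0.19), and the limma adjusted p was 0.999 for each. In Spdef and Agr2, 1 IIAEK array lay within the vehicle values. Muc2 was the only member whose groups did not overlap, lower under IIAEK by a narrow gap, and 9.28% of all features were separated in that way. The median log2 fold change of the members was 0.05, with 6 of 10 above 0, beside 0.03 and 56.3% over all features.

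The same question in KO mice again gave 0 of 10 members called by limma, with 0% of all features called and 498 (1.91%) at an unadjusted p below 0.05, again without a member. The log2 fold change was -0.37 for Clca1 (SE 0.24), 0.22 for Muc2 (SE 0.19) and -1.41 for Retnlb (SE 0.77), each with a limma adjusted p of 1.0. Retnlb passed the filter on dim probes only through KO vehicle, and its value was -0.50 after normexp background correction. Leaving out single arrays gave 0.021 to 0.37 for Muc2 and -2.12 to -0.83 for Retnlb. No member's groups were separated, against 4.69% of all features. The members' median was -0.04, with 3 of 10 above 0, beside 0.00 and 49.2% over all features.

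Loss of Akp3 was set against WT under vehicle. Of the 10 members 0 were called by limma, with 0.00766% of all features called, 2 features in all. Retnlb passed the filter on dim probes only through KO vehicle, the group where it was highest, so its values in comparisons with that group are a description and support no difference. Its mean was -2.25 ± 1.32 in KO and -3.96 ± 0.71 in WT (SD, n = 3 each), a log2 fold change of 1.71 (SE 0.77, 95% interval 0.02 to 3.41), or 3.28-fold. It was the only member with an unadjusted p below 0.05, as had 1007 of all features (3.86%), its limma adjusted p was 0.993, and KO vehicle 3 lay among the WT values. With another background correction, normexp, the Retnlb difference was 0.67; within slide 1 it was 2.89, within slide 2 it was 1.12, and leaving out single arrays gave 1.13 to 2.43. Spdef differed by -1.01 (SE 0.65) and Muc2 by -0.31 (SE 0.19), both with a limma adjusted p of 0.993. Groups were separated in 2 of 10 members, lower in KO for Spdef and higher for Tff3, whose log2 fold change was 0.21, against 14.4% of all features. The members' median was 0.14 and that of all features 0.03, with 6 of 10 and 54.6% above 0.

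KO was set against WT under IIAEK as well. Limma called 0 of 10 members, with 0.00766% of all features called and 343 (1.31%) at an unadjusted p below 0.05, none a member. The log2 fold changes of the members with the smallest p were 0.10 for Muc2, -0.12 for Atoh1 and 0.20 for Spink4. No member's groups were separated, against 3.84% of all features, and 7 of 10 members lay above 0 beside 47.5% of all features. The median of the members was 0.12 and that of all features -0.01.

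The response to IIAEK was then set against itself between genotypes, as KO minus WT. Limma called 0 of 10 members and 0% of features, with 398 features (1.52%) and 0 members at an unadjusted p below 0.05. The differences of log2 fold changes were 0.41 for Muc2, 1.27 for Spdef and -1.52 for Retnlb. Averaged over genotypes, the log2 fold change under IIAEK was -0.80 for Agr2, -0.66 for Spdef and -0.22 for Clca1, with 0 of 10 members and 0% of features called and 0 members and 2.94% of features at an unadjusted p below 0.05. Averaged over treatments, KO against WT was 0.95 for Retnlb, 0.31 for Spink4 and 0.34 for Zg16, with 0 of 10 members and 0.0192% of features called and 0 members and 3.04% of features at an unadjusted p below 0.05. These comparisons share arrays and are not separate evidence. The 4 comparisons between 2 groups likewise share groups.

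The data bound the size of a change more tightly for some members than for others. Muc2, Clca1, Fcgbp, Tff3 and Atoh1 were grouped for their small range over these same arrays, a choice that itself favours narrow intervals. Each of their 95% intervals in the 4 comparisons between 2 groups lay within -0.90 and 0.77 on the log2 scale. These bounds are a 1.87-fold decrease and a 1.70-fold increase, and they were not adjusted for the number of intervals. For Muc2 alone the bounds were -0.74 and 0.64. Zg16 was bounded by -0.91 and 1.42 and Spink4 by -0.72 and 1.15. Agr2 reached from -2.70 to 1.61, Spdef from -2.72 to 1.68 and Retnlb from -3.11 to 3.41, so these intervals leave in changes of several fold in these 3.

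**Figure D2:**
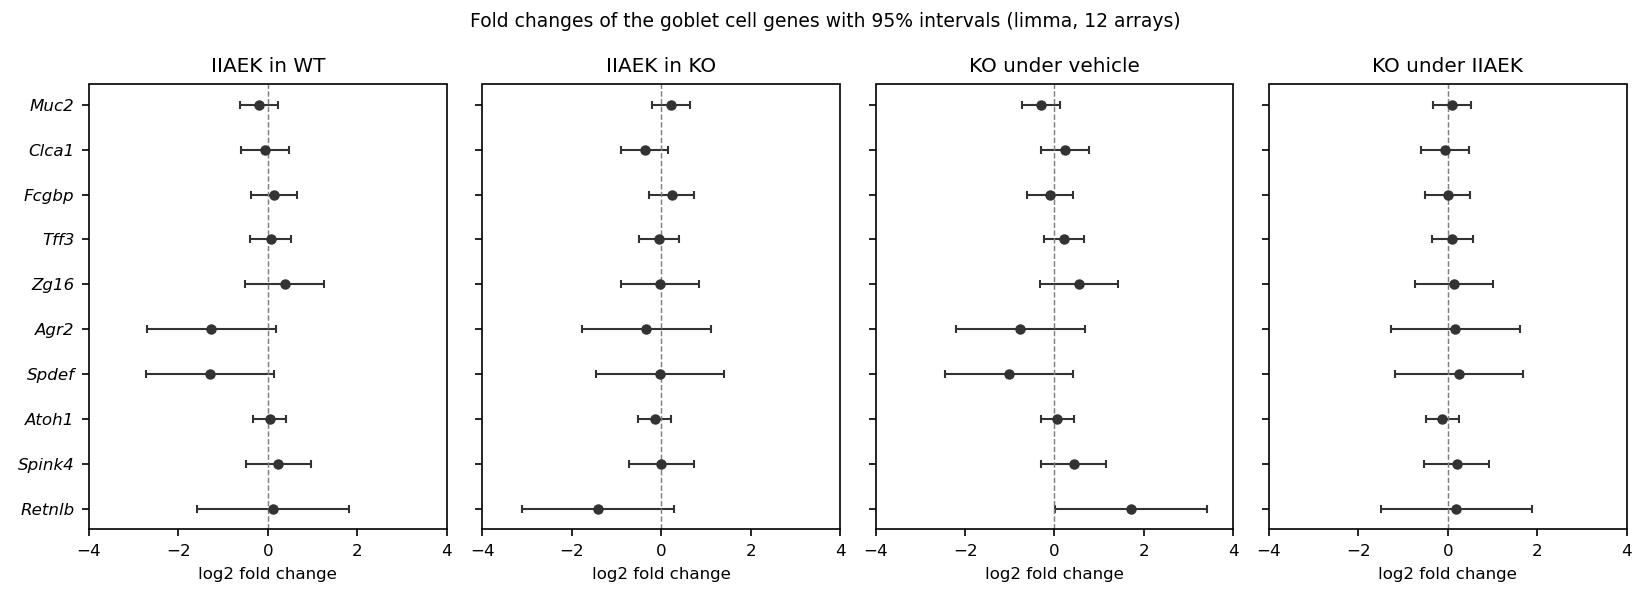
Log2 fold change (x axis, points) and 95% interval (bars, limma on 12 arrays, 3 a group) of each goblet cell gene (y axis) in the 4 comparisons between 2 groups. The intervals of Muc2 stay within -0.74 and 0.64, whereas those of Retnlb reach from -3.11 to 3.41; the Retnlb interval in KO under vehicle is 0.02 to 3.41, for a gene that passed the filter only through the KO vehicle arrays.

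Agr2 and Spdef were high on the same arrays as the gastric and Brunner's gland markers, in all 4 groups. On the 6 arrays high in those markers Agr2 read 7.70 to 8.56 (median 8.27), and on the 6 low arrays 5.75 to 7.31 (median 6.57). Spdef read 3.75 to 4.56 (median 4.08) on the high arrays and 1.98 to 2.86 (median 2.31) on the low ones. Neither gene overlapped between these sets of arrays, and the other 8 members did. Over all 26107 features, 421 (1.61%) lay wholly above and 266 (1.02%) wholly below. Spink4 came near to a split the other way. It read 6.85 to 7.18 (median 7.09) on the high arrays and 6.96 to 8.27 (median 7.67) on the low ones. Among the low arrays only WT IIAEK 1 lay within the high range of Spink4. The markers that defined the sets are given as a description only: 9 of the 11 did not overlap, among them the stomach and Brunner's gland peptides Tff2, with 9.28 to 10.10 against 5.16 to 7.91, and Gkn3, with 8.89 to 9.82 against 2.18 to 7.23. Cldn18 and Agr3 overlapped, and Muc6, a defining mucin of Brunner's glands, was not matched to a probe. By group the mean of these markers spanned 2.94 to 3.33 in WT vehicle, -1.94 to 4.33 in WT IIAEK, -1.88 to 2.94 in KO vehicle and -2.55 to 3.90 in KO IIAEK. These sets of arrays are not groups of the study, and no test was made between them.

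Since the arrays fall into separate sets, no correlation of Agr2 or Spdef with these markers or with each other is given over all 12. Within the 6 high arrays Agr2 and the marker mean had r = -0.37 (exact permutation p = 0.479, rho = -0.54), and within the 6 low arrays r = 0.08 (exact permutation p = 0.918, rho = 0.26). For Spdef the values were r = 0.53 (exact permutation p = 0.299, rho = 0.66) and r = 0.28 (exact permutation p = 0.606, rho = 0.37). Agr2 and Spdef had r = -0.90 on the high arrays (exact permutation p = 0.0181, adjusted 0.181 over 10 relations, rho = -0.77) and r = 0.71 on the low ones (exact permutation p = 0.113, adjusted 0.375, rho = 0.71). No relation of the 10 passed adjustment, so the tie between Agr2, Spdef and these markers rests on the step between the sets.

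Among the alternatives run, Spdef was called only within single slides, where the comparison also set high arrays against low ones. Within slide 1 both WT vehicle arrays were high in gastric markers and both WT IIAEK arrays low, and Spdef fell by 1.89 on the log2 scale under IIAEK (limma adjusted p = 0.00610). Within slide 2, which held 1 array of each of these groups, both high, the difference was -0.09, a value of 1 array against 1. In KO on slide 1, where the lone vehicle array was high and both IIAEK arrays low, Spdef was -1.50 under IIAEK and Agr2 -1.82. In KO on slide 2 the lone IIAEK array was high and both vehicle arrays low, and Spdef rose by 1.86. On slide 1 the lone array is assumed to vary like the other groups. On slide 2 only KO vehicle had more than 1 array, so a gene's own spread came from that group alone. The Spdef call there carries little weight. Agr2 under IIAEK in WT was -2.09 on slide 1 (limma adjusted p = 0.0934) and 0.39 on slide 2, again 1 array against 1. With slide as a block in the whole fit, Spdef under IIAEK in WT was -1.29 (limma adjusted p = 0.787). With the gastric and pancreas means as covariates it was -0.47 (limma adjusted p = 1.0), and Agr2 was -0.48. In KO against WT under vehicle, the covariates left Spdef at -0.04 and Agr2 at 0.15. All WT vehicle arrays were high in gastric markers and most arrays of each other group were low. In comparisons with WT vehicle, the covariates and the group difference therefore cannot be told apart. The part of gastric or Brunner's gland tissue in the levels of Agr2 and Spdef was not tested.

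Genes that work beside the 10 members split in the same way in part. Of 15 regulators of goblet specification, 4 lay wholly higher on the 6 arrays with high gastric markers: Foxa1 (1.13 to 1.78 against -0.07 to 0.41), Creb3l1, Creb3l4 (1.64 to 2.21 against -0.22 to 0.31) and Sox9. The gap was narrow for Sox9 (0.371 to 1.13 against -0.949 to 0.359). Of 18 enzymes of mucin glycosylation, Galnt3, Galnt4, Galnt12 (2.97 to 3.36 against 1.84 to 2.39) and St6galnac6 lay higher, and Fut8 lower. Of 24 genes of the secretory pathway and granule, 2 lay higher: Ern2, an endoplasmic reticulum stress sensor of mucous cells (3.74 to 4.38 against 2.58 to 3.13), and Bace2 (2.47 to 3.38 against 0.65 to 1.17). Of 13 genes of type 2 immunity and tuft cells, 1 lay higher, Avil. None of 5 other mucins, 10 Paneth cell genes, 15 enterocyte genes or 11 enteroendocrine genes was separated, against 2.63% of all features in either direction.

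**Figure D3:**
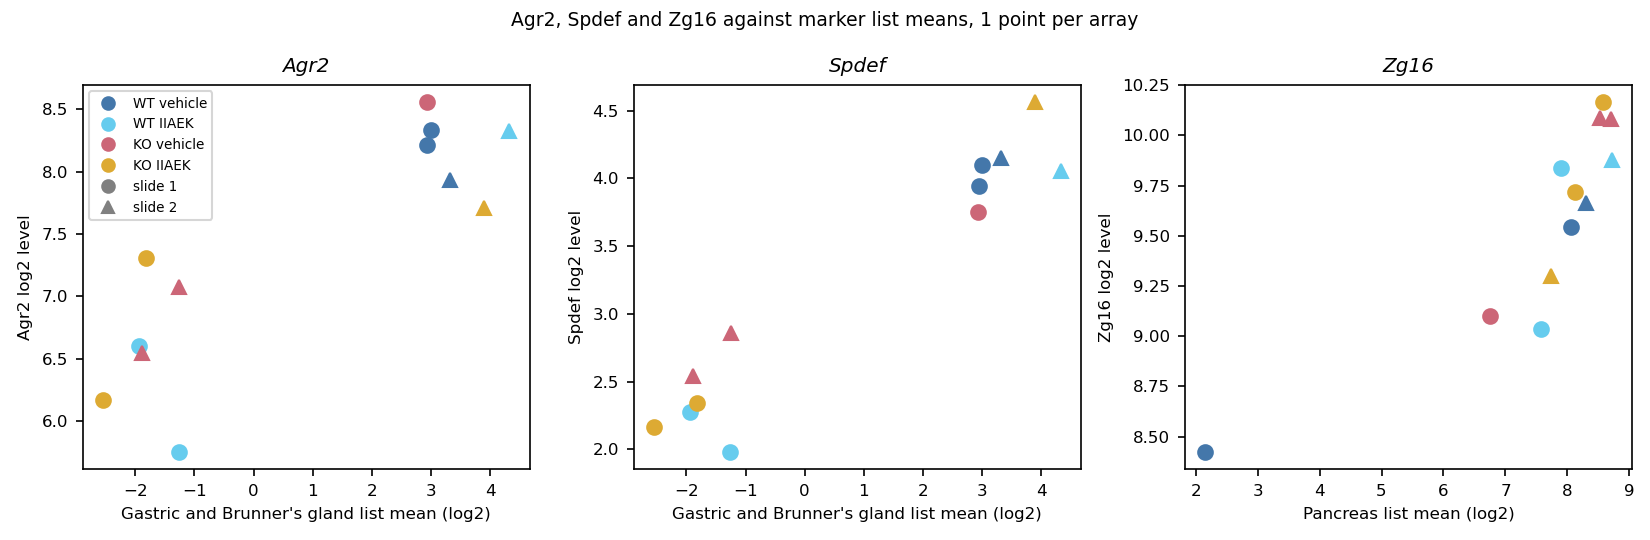
Log2 level of Agr2 and Spdef against the mean of 11 gastric and Brunner's gland markers, and of Zg16 against the mean of 19 pancreas markers (x axes, log2), with 1 point per array coloured by group and shaped by slide. Agr2 and Spdef form 2 separate clouds of 6 arrays that mix the groups, and Zg16 is lowest (8.43) on the array with the lowest pancreas mean (2.15).

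Zg16 varied with markers of the pancreas. Over the 12 arrays Zg16 and the mean of the 19 pancreas markers had r = 0.85 (permutation p = 4.0e-05, adjusted 0.00040 over 10 members) and rho = 0.88 (permutation p = 0.00033, adjusted 0.0033). Without the 2 arrays farthest from the median pancreas mean r was 0.87 (permutation p = 0.0011). Within slide 1, with 7 arrays, r was 0.86 (exact permutation p = 0.00218) and rho was 0.86 (exact permutation p = 0.0238). That slide holds WT vehicle 1, whose pancreas mean lay far below the rest and weighs on r. Slide 2 had 5 arrays, too few for a value. Among 15582 other named genes the patterns most like that of Zg16 were those of Mat1a (r = 0.99), Aass (0.98), Lrrn1 (0.96), Klk1b26 and Klk1b5 (both 0.95), a description over the same 12 arrays that was made after the values were seen. The log2 fold change of Zg16 in KO against WT under vehicle was 0.55 as measured and -0.04 with the gastric and pancreas means as covariates. The pancreas mean was 2.15, 8.05 and 8.30 under WT vehicle and 6.75, 8.70 and 8.52 under KO vehicle. Those groups overlap in it, apart from the low WT vehicle 1, where Zg16 was 8.43 against 9.55 and 9.66 on WT vehicle 2 and 3. All WT vehicle arrays were high in gastric markers and most KO vehicle arrays low. With both means in the fit, the covariates and the group difference therefore cannot be told apart. The part of pancreatic RNA in the Zg16 level was not tested.

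Muc2 ran the other way, though only by rank. Its relation to the pancreas mean was r = -0.53 (permutation p = 0.0954, adjusted 0.477) and rho = -0.82 (permutation p = 0.0017, adjusted 0.0087). Without the 2 farthest arrays r was -0.76 (permutation p = 0.0091). On slide 1 r was -0.78 (exact permutation p = 0.00615, n = 7) and rho was -0.86 (exact permutation p = 0.0238). Retnlb had r = -0.06 with the pancreas mean over all arrays and 0.84 without those 2 arrays, so no relation over all 12 can be stated for it. Relations to the pancreas mean were chosen after the values were seen.

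Muc2 was then set against the other members over the arrays. Agr2 and Spdef were left out here, since their arrays fall into separate sets. Of the 7 other relations of Muc2, all but that to Fcgbp had a negative r, and 0 passed adjustment by Pearson's r. The relation to Zg16 came nearest, with r = -0.71 (permutation p = 0.0094, adjusted 0.0657) and rho = -0.80 (permutation p = 0.0024, adjusted 0.0169), r = -0.79 without the 2 arrays farthest from the Muc2 median, and r = -0.78 within slide 1 (exact permutation p = 0.0391, n = 7). After normexp correction it passed, with r = -0.80 (permutation p = 0.0017, adjusted 0.0121). Spink4 had r = -0.59 (permutation p = 0.0421, adjusted 0.147; rho = -0.58) and Fcgbp r = 0.33 (permutation p = 0.304, adjusted 0.494; rho = 0.10). The 5 named genes whose pattern over 12 arrays was most like that of Muc2 were Fads1 (r = 0.90), Mcm4 (0.89), Msh6 (0.88), Adcy5 (0.87) and Thbs4 (0.87), none of them a goblet cell gene. Among the 7 members considered here Fcgbp ranked highest, 3197th of 15582, and Zg16 lowest, 15297th.

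Of 28 pairs among the 8 members other than Agr2 and Spdef, 2 passed adjustment by both measures. In 1 of them a gene was the dim Retnlb, and that pair is given as a description only. Tff3 and Spink4 had r = 0.89 (permutation p = 2.0e-05, the smallest these permutations can give, adjusted 0.00056) and rho = 0.84 (adjusted 0.0231). Leaving out the 2 arrays farthest from the median of either gene gave r = 0.82 and 0.75, and slide 1 gave r = 0.89 (exact permutation p = 0.00337, n = 7). Spink4 was nonetheless only the 160th of 15582 genes in likeness to Tff3. Spink4 also lay mostly higher on the arrays low in gastric markers, and its relations to Tff3, Zg16 and Muc2 pool both sets of arrays.

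Clca1 and Retnlb had r = 0.78 (permutation p = 0.0026, adjusted 0.0368) and rho = 0.80 (adjusted 0.0231). The value was 0.71 and 0.68 without the 2 arrays farthest in either gene and 0.75 within slide 1 (exact permutation p = 0.0518, n = 7). Retnlb had Clca1 as its 17th most alike gene, and Clca1 had Retnlb as its 63rd. KO vehicle 1 was the highest array in both genes and WT IIAEK 1 the lowest in both. Retnlb passed the filter on dim probes only through KO vehicle, the group where it was highest. Its relation to Clca1 is therefore a description and supports no tie between the genes. Zg16 and Spink4 passed only by rank, with r = 0.71 (permutation p = 0.0102, adjusted 0.0717), rho = 0.76 (adjusted 0.0409), r = 0.76 and 0.69 without the 2 arrays farthest in either gene and r = 0.83 within slide 1 (exact permutation p = 0.0167, n = 7). Slide 2 again had too few arrays.

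**Figure D4:**
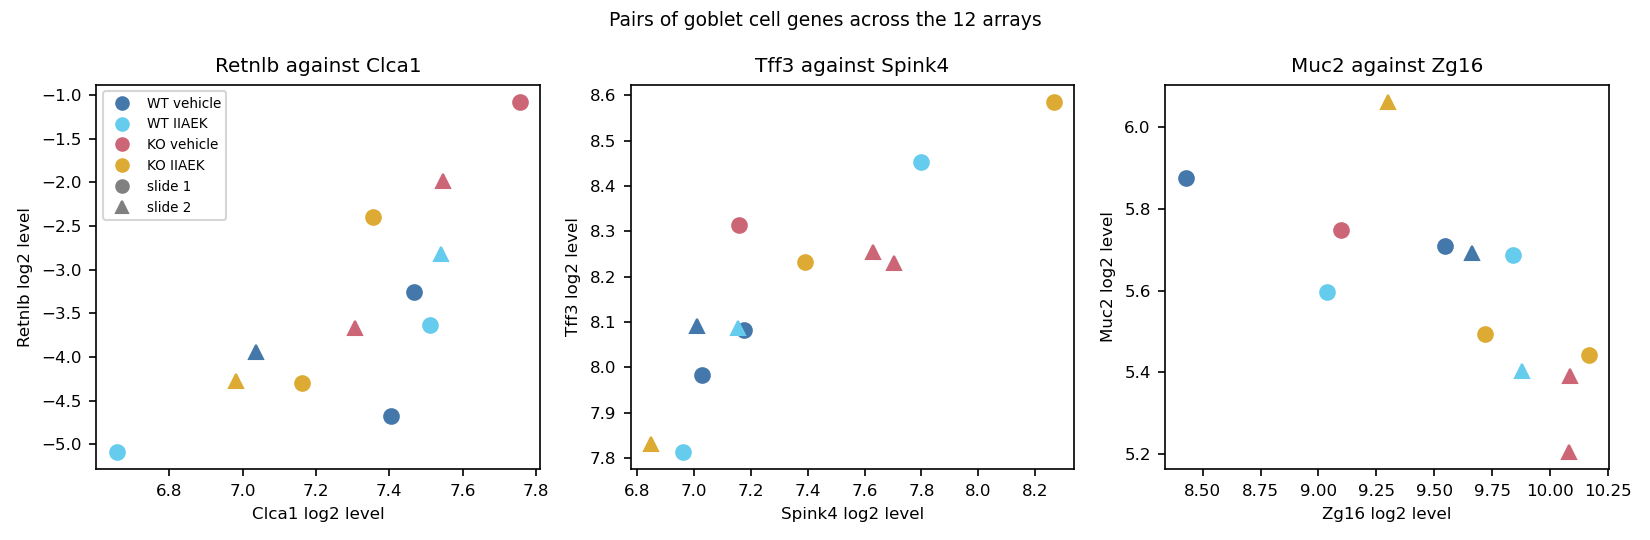
Log2 levels of Retnlb against Clca1, Tff3 against Spink4 and Muc2 against Zg16 on the 12 arrays, coloured by group and shaped by slide. The first 2 pairs rise together (r = 0.78 and 0.89), and Muc2 is lower where Zg16 is higher (r = -0.71, which did not pass adjustment). Retnlb was well above background on 9 of the 12 arrays and passed the filter only through KO vehicle.

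The wider goblet programme gave no call in any comparison. In limma, 0 of 15 specification genes, 0 of 18 glycosylation enzymes, 0 of 24 secretory and granule genes and 0 of 5 other mucins passed in the 7 comparisons. Over all features 0% to 0.0192% passed, so these counts do not set the lists apart. At most 2 genes of a list had an unadjusted p below 0.05 in any comparison, as had 1.31% to 3.86% of all features. Under IIAEK in WT, where 3.13% of all features had such a p, the 2 were Galnt3 (log2 fold change -0.79) and Galnt5 (-0.64). Both are enzymes that start O-glycans on mucins, and both had a limma adjusted p of 0.999. The median of the 18 glycosylation enzymes was -0.15 there, with 15 of 18 below 0, beside 0.03 over all features; Galnt3 is among the enzymes that also followed the gastric markers.

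In KO against WT under vehicle, unadjusted p values below 0.05 were found for Sox9, a crypt transcription factor (log2 fold change -0.85), the Notch ligand Dll1 (0.36), Galnt5 (-0.80) and the transmembrane mucin Muc13 (0.71), all with a limma adjusted p of 0.993. Over all features in this comparison, 3.86% had an unadjusted p below 0.05. Sox9, again, was separated by the gastric markers, though by a narrow gap. Under IIAEK in KO, Muc13 was -0.57 (limma adjusted p = 1.0), so that its values in the 2 comparisons, which share the KO vehicle arrays, had opposite signs.

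Type 2 immunity drives goblet cell expansion and Retnlb. Of its 18 listed genes, tuft cell genes included, 13 passed the filter and 0 were called by limma in any comparison. Over all features at most 0.0192% were called. Il5, Il13 and Il25 were well above background on 0 arrays, as were Gnat3 and, of the mucins, Muc15. The alarmin Il33 was -1.09 under IIAEK in KO (limma adjusted p = 1.0). In KO against WT under vehicle, where Retnlb had its highest value, 9 of 13 genes of this list lay above 0 with a median of 0.17, beside 54.6% and 0.03 over all features. Of these 13 genes 0 had an unadjusted p below 0.05, against 3.86% of all features. In the same comparison all 9 T cell markers lay above 0 with a median of 0.48, as did all 19 pancreas markers with 2.06, and 0 of 11 gastric and Brunner's gland markers did, with -2.82. The part of these in the values was not tested. By array the pancreas mean was 2.15, 8.05 and 8.30 under WT vehicle and 6.75, 8.70 and 8.52 under KO vehicle. The direction of the pancreas shift thus rests on WT vehicle 1. The 10 Paneth cell genes, the other granule-bearing lineage, had a median of 0.22 in that comparison and 0 calls, against 0.00766% of all features called.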

How the data were processed

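Total RNA of duodenum, 1 array per mouse and 3 per group, had been labelled with Cy3 and hybridised by the authors; the deposited scanner files come from Feature Extraction 10.7.3.1, per the file headers. Their processed intensity is, per the file headers, background-subtracted and not scaled between arrays. The authors' deposited value table holds log2 values, whose making the labels do not state. Against the scanner files it matched log2 intensity shifted by the 75th percentile and centred per probe (r at least 0.999996 on each array, column medians -0.09 to 0.13), so its direction and scale are known and a level cannot be read from it.

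Of 62976 spots an array, 3671 controls were left out, as were outlier-flagged spots, which removed 22 of 56605 probes. Spots of a probe were averaged, log2 taken and the array's 75th percentile subtracted. A RefSeq table of GRCm38.p6 named 32978 probes through their unversioned accession. The filter for probes well above background left 32925 probes, and of several probes of a gene that of highest mean was used, giving 26107 features. Probe levels are relative, and the number of arrays limits the precision (median SE of a difference 0.24).

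A linear model with limma 3.58.1 (R 4.3.3; eBayes, trend on) fitted 1 mean per group over 12 arrays, with Benjamini-Hochberg adjustment over all features and 95% intervals unadjusted. On data simulated for IIAEK in WT over 26107 features, 17 of 50 changes of 1 log2 unit, 41 of 50 of 2, 47 of 50 of 3 and 49 of 50 of 4 were recovered, with 6 false calls. The simulated noise was independent between features and held no slide or tissue-marker differences, so these rates need not hold for the real arrays. Correlations over 12 arrays, which pool mice of all groups, used two-sided permutation tests with 100000 draws in Python 3.11.15 (scipy 1.17.1), and exact ones for 6 or 7 arrays; limma tests were two-sided too. Alternatives were quantile normalisation, normexp background correction (offset 50), no dim-probe filter, the mean of a gene's probes, no trend, slide as a block or alone, replicate number as a block, the compared groups alone, the deposited table, tissue marker means as covariates, kept outlier spots, and each array left out.

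Named were all members, in each comparison those with an unadjusted p below 0.05 and in any case the 3 of smallest p, up to 3 of smallest p from each other list, and the 5 genes most like Muc2. Members and lists were chosen with earlier results of these data known. Mice share no stated pairing: over 18 pairs of arrays with the same number, deviations from group means had correlations of -0.25 to 0.70, and 5 of 12 arrays correlated best with their own number.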

Additional observations from a re-analysis of the deposited data

How the results depend on the processing

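Over the alternatives run, the count of goblet cell genes called stayed at 0 in 176 values and was 1, always Spdef, in 3: within slide 1 for IIAEK in WT (-1.89) and IIAEK averaged over genotypes (-1.69), and within slide 2 for IIAEK in KO. The slide 2 fit has 1 KO IIAEK array and takes a gene's own spread from KO vehicle alone, so its call carries little weight. The slide 1 average likewise includes 1 lone KO vehicle array. Of the medians over the 10 members, 174 moved by less than 0.26 log2, the SD of that median. The others were -0.30 for IIAEK in KO and -0.28 for KO under IIAEK within slide 2, 0.12 for the difference between genotypes both with tissue covariates and without WT vehicle 1 and KO IIAEK 3 (an alternative chosen after seeing the data), and, on leaving out single arrays, -0.14 to 0.17 for KO under IIAEK. Among the members named for a comparison by their small p, 15 values changed sign; members not so named were not tallied, and some of those changed sign within a slide too. Within slide 2 the 15 included Agr2 under IIAEK in WT (0.39) and on average (0.65), Spdef (0.89) and Clca1 (0.031) under IIAEK on average, Zg16 (-0.078) and Retnlb (-0.17) in KO on average, and Spink4 (-0.31) in KO under IIAEK. Within slide 1 they were Muc2 under IIAEK in KO (-0.28), in KO under IIAEK (-0.17) and in the difference between genotypes (-0.13). Muc2 was 0.019 under IIAEK in WT with tissue covariates and -0.094 in KO under IIAEK without WT vehicle 1 and KO IIAEK 3. Leaving out single arrays, KO under IIAEK spanned -0.094 to 0.21 for Muc2, -0.19 to 0.52 for Spink4 and -0.25 to 0.024 for Atoh1. The relations of Muc2 that passed adjustment numbered 1, that with Zg16, after normexp correction. The cause of these shifts was not tested. Using the replicate number as a block, a number that does not pair the mice, called 0 members and left the median for IIAEK in WT at 0.05. Retnlb in KO under vehicle was 1.71 with that block. Fits to the compared groups alone gave no value for the difference or averages. Retnlb, near background, is the member whose signal limits it most.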
